A study of Mus musculus with 15 samples.

Results

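The BMP, activin and TGF-beta pathway is described here through 50 genes named by symbol: 16 ligand genes, 13 genes of receptors, a co-receptor and a decoy receptor, 8 SMAD genes, 7 genes of secreted antagonists and follistatin relatives, 3 latent TGF-beta binding proteins and 3 Id target genes. The list was drawn up by symbol, with earlier results of these data known, and all 50 genes were found among 19938 genes measured, each with exactly 1 probe set. No filter on low values was applied, so all 50 enter every count below. Some members, such as Acvr2b, Smad9, Inha, Bmp7, Nog and Chrd, read near the median of all probe sets on the arrays. Whether values this low reflect expression of these genes was not tested.

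The RNA came from whole tarsal joints of male DBA/1JBom mice, 1 joint per array, on 15 Affymetrix Mouse Gene 1.0 ST arrays. In 12 mice arthritis had been raised by chicken type II collagen in complete Freund's adjuvant, with a boost on day 21 of collagen in incomplete Freund's adjuvant. The groups were joints at the full arthritis score of 3 for 0 to 3 days (days 0–3), for 1 to 2 weeks (weeks 1–2) or for 3 to 4 weeks (weeks 3–4), joints whose score had since gone down (decline), and 3 control joints, with 3 mice per group. The labels give the controls as not induced and the array methods as not immunised, while controls in the animal methods had adjuvant but no collagen. Declining joints had held the full score for over 2 weeks by the sample labels and at least 2 weeks by the methods, and the series text gives a longer minimum. No source used here gives the age of the mice. Skin, fur and visible muscle had been cut away, while tendon, synovium, cartilage, bone and marrow stayed in the sample, and the mice of a group are separate animals.

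The 1 array that the labels mark as failing quality control, animal 57 of days 0–3, was left out, so that the group of days 0–3 rests on 2 arrays and the fit on 14. Among these, control 2 and decline 10 had the narrowest spread over genes (SD 1.22 and 1.28 log2, against 1.41 to 1.65 on the others). Controls 1 and 3 (1.46 and 1.41) were also narrower than every arthritic array in the fit except decline 10 (1.48 to 1.65). Spread thus differed between controls and phases. All genes were also refitted in limma with 1 median and SD set for every array. On days 0–3 Inhba then changed by 2.31 log2 (adjusted p = 0.015) and Tgfbr1 by 1.15 (adjusted p = 0.0137). Bmp4 changed by -0.71 (adjusted p = 0.0158). Smad6 also kept its call on days 0–3, as defined below, while Fstl1 and Ltbp2 lost theirs. Beyond that refit, the part of spread in the changes was not tested. Markers of the joint's own cells and of other tissues both moved with the phases. On days 0–3, 2 of 8 cartilage markers fell, Chad and Clec3a, and 1 of 6 osteoblast markers rose, Ibsp, with a cartilage list mean of 7.21 to 7.46 log2 on days 0–3 and 8.07 to 8.29 in controls and an osteoblast list mean of 7.96 to 8.25 on days 0–3 and 7.90 to 8.37 in controls. Chad and Clec3a also fell in weeks 1–2, where Hapln1 and 2 osteoblast markers rose. Also on days 0–3, 4 of 8 macrophage, 4 of 8 osteoclast and 4 of 8 endothelial markers rose against control, and 7 of 8 skeletal muscle, 3 of 6 smooth muscle and 5 of 6 adipocyte markers fell. Of all genes, 4.46% rose and 3.36% fell on days 0–3. The same 4 osteoclast markers rose in weeks 1–2 and weeks 3–4. The mean of the osteoclast list was 8.08 to 8.45 on days 0–3 and 6.53 to 7.06 in controls, and that of skeletal muscle 8.96 to 9.14 on days 0–3 and 11.05 to 11.75 in controls. In weeks 1–2, 4 of 8 fibroblast and 5 of 6 tendon markers rose, with list means of 10.85 to 10.99 and 9.61 to 9.70 log2, against 9.71 to 10.62 and 7.45 to 8.80 in controls. In weeks 3–4, 2 of 8 fibroblast, 1 of 6 tendon and 1 of 6 osteoblast markers rose. In the same phase, 2 of 6 smooth muscle, 1 of 8 skeletal muscle and 1 of 3 Schwann cell markers fell. No neutrophil or T and B cell marker was called, as defined below, in any phase. The epidermis list lay at 5.79 to 5.82 on days 0–3, 5.92 to 6.59 in weeks 1–2, 7.21 to 11.34 in weeks 3–4, 10.84 to 11.70 in decline and 6.30 to 10.76 in controls. The part of these tissues in the results below was not tested, and in whole joints fewer cells of a type and less RNA per cell cannot be told apart.

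Ligands of this family are secreted dimers that bind a pair of type I and a pair of type II receptor kinases on the cell surface. The activated type I receptor phosphorylates SMAD proteins, SMAD1, SMAD5 and SMAD9 on the BMP side and SMAD2 and SMAD3 on the activin and TGF-beta side, which enter the nucleus with the common SMAD4. The pathway is kept in check by secreted antagonists such as noggin and follistatin, by storage of latent TGF-beta on matrix fibrils and by the inhibitory SMAD6 and SMAD7. In joints and bone it is known for driving cartilage and bone formation, repair of tendon and ligament, and fibrosis.

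The DNA before the start of Inhba and Tgfbr1, the 2 members with the largest called rises, is printed here because the results turn on them. Capitals mark GGCGCC, the GC-rich element of BMP-regulated SMADs, and both are RefSeq sequence of GRCm38.p6, 5′ to 3′ on the + strand.
Inhba, chr13:16011601-16011850: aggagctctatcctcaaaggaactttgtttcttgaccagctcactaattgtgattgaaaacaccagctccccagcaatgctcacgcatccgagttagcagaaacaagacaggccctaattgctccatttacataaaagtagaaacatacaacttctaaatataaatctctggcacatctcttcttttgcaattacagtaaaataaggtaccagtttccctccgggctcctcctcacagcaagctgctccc
Tgfbr1, chr4:47352972-47353221: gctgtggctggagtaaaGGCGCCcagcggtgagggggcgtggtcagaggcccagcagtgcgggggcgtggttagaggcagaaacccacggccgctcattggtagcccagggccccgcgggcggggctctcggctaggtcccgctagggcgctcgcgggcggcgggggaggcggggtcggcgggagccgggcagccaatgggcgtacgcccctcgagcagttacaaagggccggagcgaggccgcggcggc
The Inhba stretch is 43.2% G and C and held none of the 4 motifs searched, and RefSeq also annotates an earlier start of the gene, so it lies inside the gene's annotated extent. The Tgfbr1 stretch, the upstream one of 2 listed for that gene, is 74.8% G and C and held 1 copy of GGCGCC, 233 bases before the start. The motifs were searched on both strands of the 250 bases before 32851 annotated starts. Of these windows, 41 belong to 34 of the members. CAGAC, the short box that SMAD proteins bind, was present in 48.8% of the member windows and 42.2% of all windows. GGCGCC was found in 8 of 41 member windows (19.5%) and in 9.59% of all. The SMAD palindrome GTCTAGAC and the AP-1 site TGACTCA were in none of the member windows, and in 0.167% and 4.46% of all. The median G and C content was 64% in member windows and 52.4% in all. A match describes letters only.

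Across the 4 phases, pathway genes were called against control in the first 2 phases only, where called means an adjusted p under 0.05 in limma over all 19938 genes. On days 0–3, Inhba, Tgfbr1, Fstl1 and Ltbp2 rose, and Smad6 and Bmp4 fell. These are 6 of 50 members, or 12%, where 7.82% of all genes were called (4.46% higher, 3.36% lower). In weeks 1–2, Inhba, Tgfbr1 and Fstl1 rose and Smad6 fell, 4 of 50 or 8%, where 10.1% of all genes were called (5.41% higher, 4.64% lower). No member was called in weeks 3–4 (background 1.55%, with 0.958% higher and 0.592% lower) or in decline (background 0%). At an unadjusted p under 0.05 in limma, 9 members were higher and 2 lower in weeks 3–4, where 11.2% of all genes were higher and 12.8% lower, and 1 was higher and 2 were lower in decline (5.58% and 6.46% of all genes). By a 2-fold change with an unadjusted p under 0.05, Inhba and Id2 were higher in weeks 3–4, 4% of the members, where 2.65% of all genes were higher and 0.637% lower. The share of pathway genes called thus lay close to that of all genes in each phase, and the counts are no result about the pathway as a whole. All 4 comparisons share the same 3 controls. Every arthritic array in the fit carries a letter code in its array name and the controls carry none, so code and arthritis cannot be told apart there.

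The median log2 change of the members was 0.11 on days 0–3, 0.04 in weeks 1–2, 0.05 in weeks 3–4 and -0.02 in decline. That of all genes was -0.12, -0.13, -0.09 and -0.05 in the same order, so changes below are to be read against a downward shift of about 0.1 in the first 3 phases. With 1 median and SD set for every array, the shift of all genes was -0.01 on days 0–3 and -0.01 in weeks 1–2. Arrays of the phase and of the controls did not overlap for 17 members higher (34%) and 12 lower (24%) on days 0–3, where 18.4% and 27.8% of all genes did the same. In weeks 1–2 there were 10 higher and 6 lower (20% and 12%, background 13.6% and 23.3%), in weeks 3–4 again 10 and 6 (background 10.5% and 15.4%), and in decline none (background 3.8% and 6.2%). By group means, 14 members were highest on days 0–3, 9 in weeks 1–2, 11 in weeks 3–4, 3 in decline and 13 in control. Control 2 was the lowest of the 3 controls for 22 members, control 3 for 20 and control 1 for 8.

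**Figure D1:**
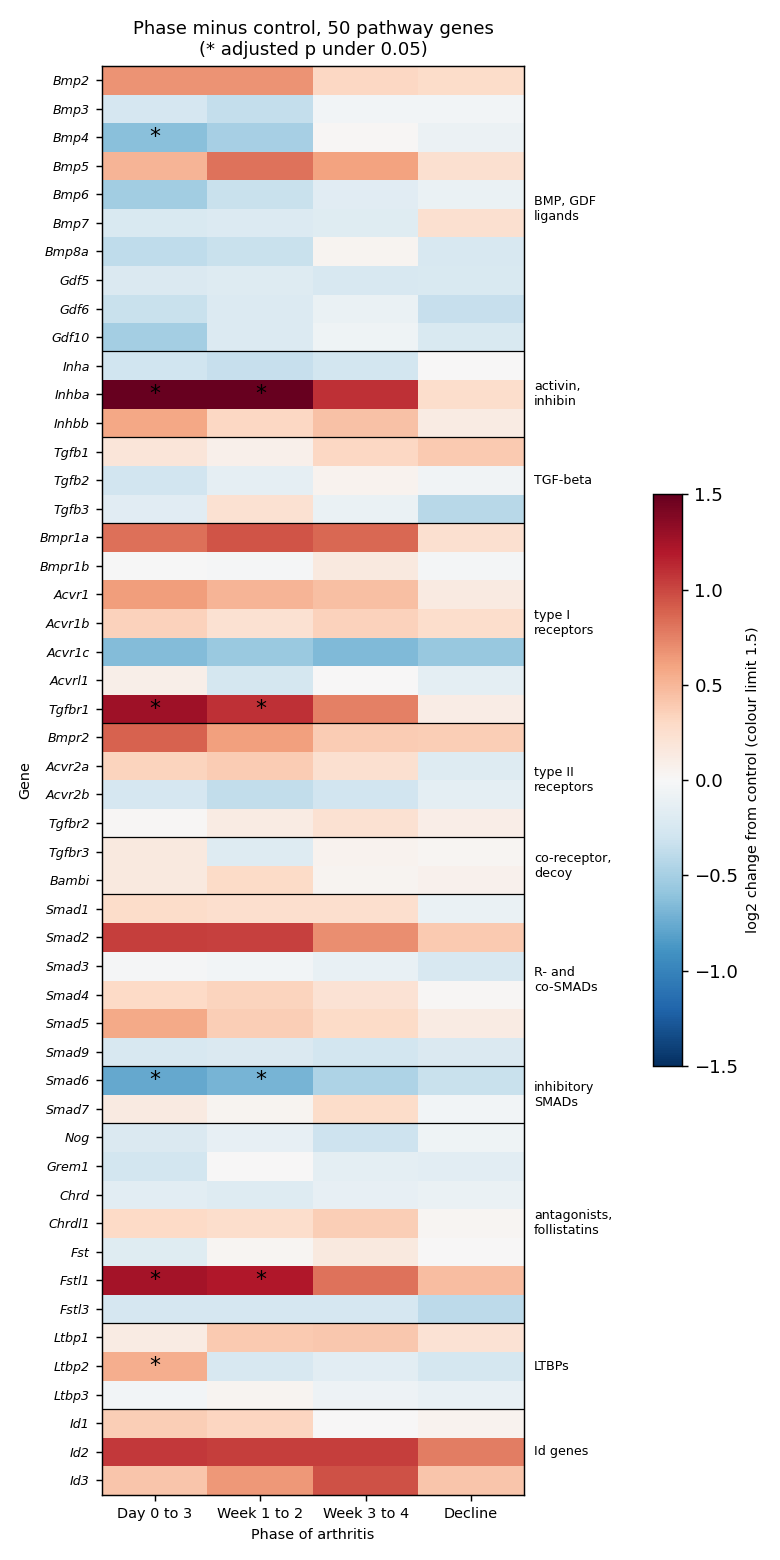
Log2 change from control of the 50 pathway genes (rows, by role) in the 4 phases (columns), with red higher and blue lower than control, the colour held at its limit beyond 1.5, and an asterisk for an adjusted p under 0.05. The 6 asterisks of days 0–3 and the 4 of weeks 1–2 lie on Inhba, Tgfbr1, Fstl1, Smad6, Bmp4 and Ltbp2.

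The largest called change was in an activin subunit gene. Inhba, whose product pairs with itself to form activin A, rose 5.67-fold on days 0–3 and 3.72-fold in weeks 1–2. On the log2 scale, with animals in the order 16 and 18, then 33, 43 and 52, then 54, 29 and 60, then 15, 21 and 10, then controls 1, 2 and 3, Inhba read 9.69 and 9.81 on days 0–3, 8.78, 9.31 and 9.33 in weeks 1–2, 8.75, 7.69 and 8.58 in weeks 3–4, 8.09, 8.14 and 6.31 in decline, and 7.25, 7.75 and 6.74 in controls. All 5 arrays of the first 2 weeks lay above every control, 2 of the 3 arrays of weeks 3–4 did so, and the declining joints spread on both sides, with animal 10 below all controls. The log2 change was 2.50 (SE 0.48, adjusted p = 0.00941) on days 0–3, 1.90 (SE 0.43, adjusted p = 0.0178) in weeks 1–2, 1.09 (adjusted p = 0.16) in weeks 3–4 and 0.27 (adjusted p = 0.827) in decline. Without control 3 the call of weeks 1–2 was lost (log2 change 1.64, adjusted p = 0.0612).

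Inhbb, the subunit of activin B, read 7.08 and 6.74 on days 0–3, 6.41, 6.67 and 6.83 in weeks 1–2, 6.64, 6.57 and 7.08 in weeks 3–4, 6.52, 6.59 and 6.23 in decline, and 6.56, 6.24 and 6.19 in controls. Its arrays of days 0–3 and of weeks 3–4 lay above every control, with log2 changes of 0.58 (adjusted p = 0.102) and 0.44 (adjusted p = 0.187), neither called. Inha, the alpha subunit that turns activin dimers into inhibin, had changes of -0.30, -0.34, -0.27 and 0.01 from days 0–3 to decline, none called. Of the 3 subunits, then, 1 was called in the first 2 phases and none later.

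Among the 10 BMP and GDF ligands, Bmp4 was the 1 called, and it fell. Bmp4, which like Bmp2 induces cartilage and bone formation, read 6.93 and 7.13 on days 0–3, 7.10, 7.24 and 7.15 in weeks 1–2, 7.91, 7.48 and 7.63 in weeks 3–4, 7.54, 7.69 and 7.47 in decline, and 7.77, 7.40 and 7.80 in controls. The 5 arrays of the first 2 weeks lay below every control, whereas those of weeks 3–4 and decline lay within or beside the control range. On days 0–3 it was 1.55-fold lower (log2 change -0.63, SE 0.18, adjusted p = 0.0459), and in weeks 1–2 the change was -0.50 (adjusted p = 0.0611), short of the threshold. The call of days 0–3 is marginal: it held in 4 of 14 fits without 1 array and in 6 of 11 other alternatives, and the adjusted p was 0.0707 without control 1, 0.11 without control 3, and 0.0505 to 0.0699 without 1 of animals 33, 43, 52, 29, 60 or 15, which enter only the estimate of spread.

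Bmp2 read 7.95 and 7.56 on days 0–3, 7.58, 7.81 and 7.87 in weeks 1–2, 7.29, 7.10 and 7.76 in weeks 3–4, 7.61, 7.26 and 7.17 in decline, and 7.85, 6.02 and 7.37 in controls. Control 2 lay far below the other arrays, and the controls spanned more than all phases did, and the log2 changes of 0.68 and 0.68 in the first 2 phases were not called (adjusted p = 0.291 and 0.212). The change in weeks 1–2 was 1.07 without control 1 (adjusted p = 0.0454) and 0.15 without control 2 (adjusted p = 0.756). Bmp5, a ligand of the BMP7 subgroup that shapes skeletal elements, read 8.03 and 8.02 on days 0–3, 8.01, 8.63 and 8.36 in weeks 1–2, 8.45, 7.87 and 8.04 in weeks 3–4, 8.34, 7.99 and 6.95 in decline, and 8.41, 7.33 and 6.79 in controls. Here control 1 stood among the highest arrays and decline 10 among the lowest, and the largest change, 0.82 in weeks 1–2, had an adjusted p of 0.173, which was 0.0302 without control 1 and 0.446 without control 3.

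Bmp6 read 6.13 and 6.18 on days 0–3, 6.33, 6.27 and 6.44 in weeks 1–2, 6.73, 6.83 and 5.98 in weeks 3–4, 6.66, 6.43 and 6.66 in decline, and 6.41, 7.07 and 6.58 in controls. Its 2 arrays of days 0–3 lay below every control (log2 change -0.53, adjusted p = 0.192), but 1 array of weeks 3–4 lay lower still. Bmp7, known for its part in kidney and skeletal development, read 6.01 and 6.19 on days 0–3, 6.03, 6.18 and 6.16 in weeks 1–2, 6.03, 6.28 and 6.11 in weeks 3–4, 6.81, 6.27 and 6.61 in decline, and 6.12, 6.34 and 6.51 in controls. No phase was apart from control, and the declining joints were the highest group (0.24, adjusted p = 0.584). The other 5 ligands, Bmp3, Bmp8a, Gdf5, Gdf6 and Gdf10, had no called change, the largest being Gdf10 on days 0–3 (-0.50, adjusted p = 0.175). Over the 10 ligands the median change was -0.30 on days 0–3, against -0.12 over all genes, and -0.05 in weeks 3–4, against -0.09.

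None of the 3 TGF-beta ligands was called in any phase. Tgfb1, the main form of immune and bone cells, read 8.12 and 7.99 on days 0–3, 7.85, 8.01 and 7.97 in weeks 1–2, 8.23, 8.01 and 8.30 in weeks 3–4, 8.46, 8.50 and 7.83 in decline, and 7.98, 7.68 and 7.95 in controls. Its arrays of days 0–3 and weeks 3–4 lay just above the controls, with changes of 0.19 (adjusted p = 0.57) and 0.31 (adjusted p = 0.296). Tgfb3 read 8.60 and 8.44 on days 0–3, 8.87, 9.22 and 8.67 in weeks 1–2, 8.76, 8.39 and 8.65 in weeks 3–4, 8.78, 8.65 and 7.39 in decline, and 8.80, 8.82 and 8.47 in controls. All arrays but decline 10 lay between 8.39 and 9.22, and that array alone set the change of -0.42 in decline, which was 0.02 without it. Tgfb2 differed by -0.29 on days 0–3 (adjusted p = 0.433) and by 0.05 in weeks 3–4.

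**Figure D2:**
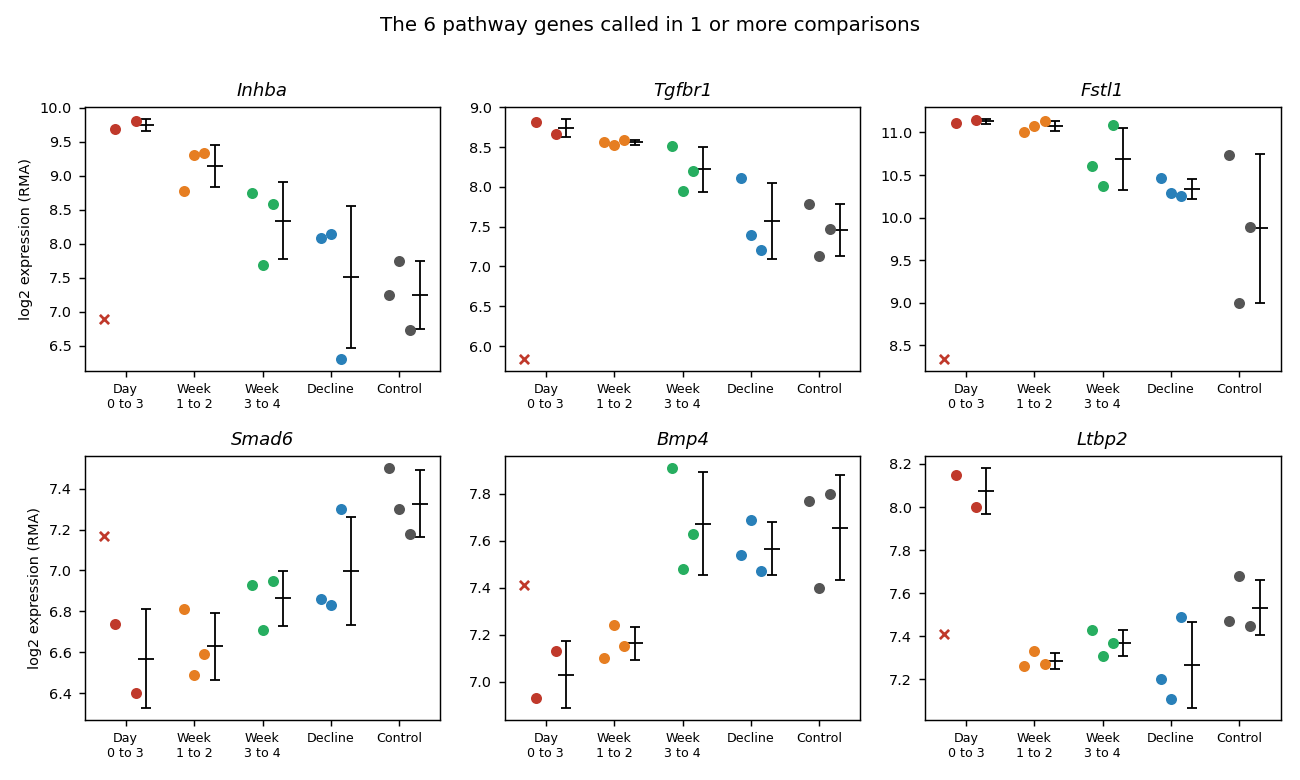
Log2 expression of the 6 genes called in at least 1 comparison, by phase and control, with dots for single arrays, bars for the mean and SD (2 arrays on days 0–3, 3 in each other group) and a cross for animal 57, which entered neither mean nor test. Inhba, Tgfbr1 and Fstl1 are highest and Smad6 and Bmp4 lowest in the first 2 weeks, and Ltbp2 is high on days 0–3 alone.

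Of the 7 type I receptors, Tgfbr1 was called and rose 2.42-fold on days 0–3 and 2.14-fold in weeks 1–2. Tgfbr1 encodes the kinase through which TGF-beta acts on SMAD2 and SMAD3, and it read 8.82 and 8.66 on days 0–3, 8.56, 8.53 and 8.59 in weeks 1–2, 8.51, 7.95 and 8.20 in weeks 3–4, 8.11, 7.39 and 7.21 in decline, and 7.78, 7.13 and 7.47 in controls. All 8 arrays of the first 3 phases lay above every control, with the 3 of weeks 1–2 between 8.53 and 8.59, and the declining joints overlapped the controls. Its log2 change was 1.28 (SE 0.26, adjusted p = 0.012), 1.10 (SE 0.23, adjusted p = 0.013), 0.76 (adjusted p = 0.0939) and 0.11 (adjusted p = 0.876) from days 0–3 to decline.

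Bmpr1a, a BMP type I receptor of cartilage and bone cells, read 7.75 and 7.97 on days 0–3, 7.71, 8.17 and 8.03 in weeks 1–2, 7.75, 7.72 and 8.24 in weeks 3–4, 7.68, 7.63 and 6.53 in decline, and 7.14, 6.46 and 7.51 in controls. Again the 8 arrays of the first 3 phases lay above every control, while control 2 and decline 10 were the lowest arrays. The log2 changes of 0.82, 0.94 and 0.87 did not pass, with the smallest adjusted p in weeks 1–2 (0.0684), which was 0.0216 without decline 10 and 0.235 without control 2. Acvr1, the BMP type I receptor whose activating mutations cause ectopic bone in humans, read 7.58 and 7.58 on days 0–3, 7.35, 7.58 and 7.48 in weeks 1–2, 7.36, 7.23 and 7.65 in weeks 3–4, 7.19, 7.33 and 6.76 in decline, and 7.22, 7.13 and 6.53 in controls. Its 8 arrays of the first 3 phases were above the 3 controls, and the change of 0.62 on days 0–3 had an adjusted p of 0.105.

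Acvr1c, a nodal and activin receptor known from fat, differed from control by -0.66, -0.55, -0.66 and -0.57 log2 from days 0–3 to decline, with adjusted p between 0.127 and 0.364. The mean of 6 adipocyte markers was 7.15 to 7.17 on days 0–3, 7.36 to 7.38 in weeks 1–2, 7.33 to 7.77 in weeks 3–4, 7.58 to 7.68 in decline and 8.06 to 8.14 in controls, and its part in the Acvr1c values was not tested. Acvr1b, the main activin type I receptor, differed by 0.34 on days 0–3 (adjusted p = 0.331). Acvrl1, a receptor of endothelium, differed by 0.09, -0.26, 0.00 and -0.14 from days 0–3 to decline, and Bmpr1b by -0.01, -0.01, 0.15 and -0.04, none called.

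No type II receptor was called. Bmpr2, the BMP type II receptor, read 9.34 and 9.31 on days 0–3, 8.69, 9.42 and 9.03 in weeks 1–2, 8.88, 8.54 and 9.02 in weeks 3–4, 9.04, 8.80 and 8.55 in decline, and 8.97, 7.95 and 8.38 in controls. The 2 arrays of days 0–3 lay above every control, and control 2 was the lowest array of all, at 7.95. Its log2 change was 0.89 (adjusted p = 0.0689) on days 0–3 and 0.61 (adjusted p = 0.125) in weeks 1–2, and the first of these had an adjusted p of 0.016 without control 1 and 0.189 without control 2.

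The 2 activin type II receptors stood on opposite sides of control. Acvr2a read 7.84 and 7.39 on days 0–3, 7.50, 7.72 and 7.76 in weeks 1–2, 7.35, 7.52 and 7.70 in weeks 3–4, 7.36, 7.39 and 6.53 in decline, and 7.31, 7.35 and 7.21 in controls, and Acvr2b read 6.16 and 6.15 on days 0–3, 6.12, 6.0 and 5.98 in weeks 1–2, 6.18, 6.11 and 6.08 in weeks 3–4, 6.08, 6.07 and 6.62 in decline, and 6.41, 6.47 and 6.35 in controls. In the first 3 phases all 8 arrays lay above the controls for Acvr2a and below them for Acvr2b, by small steps and in animal 54 for Acvr2a only just: the changes were 0.33, 0.38 and 0.24 for Acvr2a and -0.25, -0.37 and -0.29 for Acvr2b, none called. Decline 10 was the lowest of the 14 arrays for Acvr2a and the highest for Acvr2b. The smallest adjusted p was 0.126, for Acvr2b in weeks 1–2, and it was 0.0404 without decline 10. Tgfbr2, the TGF-beta type II receptor, read 7.39 and 7.52 on days 0–3, 7.58, 7.55 and 7.56 in weeks 1–2, 7.66, 7.55 and 7.77 in weeks 3–4, 7.58, 7.42 and 7.63 in decline, and 7.54, 7.53 and 7.25 in controls. Its arrays of weeks 1–2 and weeks 3–4 lay above every control, the lowest of them at 7.55 and the highest control at 7.54. The controls were split, with control 3 at 7.25 below controls 1 and 2, and the highest change was 0.22 in weeks 3–4 (adjusted p = 0.316).

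Neither accessory receptor was called. Tgfbr3, the co-receptor betaglycan, read 8.13 and 8.08 on days 0–3, 7.49, 8.04 and 7.79 in weeks 1–2, 8.07, 7.83 and 8.13 in weeks 3–4, 7.87, 8.14 and 7.95 in decline, and 7.96, 8.05 and 7.87 in controls, and Bambi, a decoy receptor without a kinase, read 6.85 and 7.28 on days 0–3, 7.06, 7.03 and 7.51 in weeks 1–2, 6.98, 7.03 and 6.86 in weeks 3–4, 6.87, 7.03 and 7.05 in decline, and 6.96, 6.91 and 6.88 in controls. For Tgfbr3 the days 0–3 arrays and for Bambi those of weeks 1–2 lay above every control, with changes of 0.15 (adjusted p = 0.611) and 0.28 (adjusted p = 0.25).

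**Figure D3:**
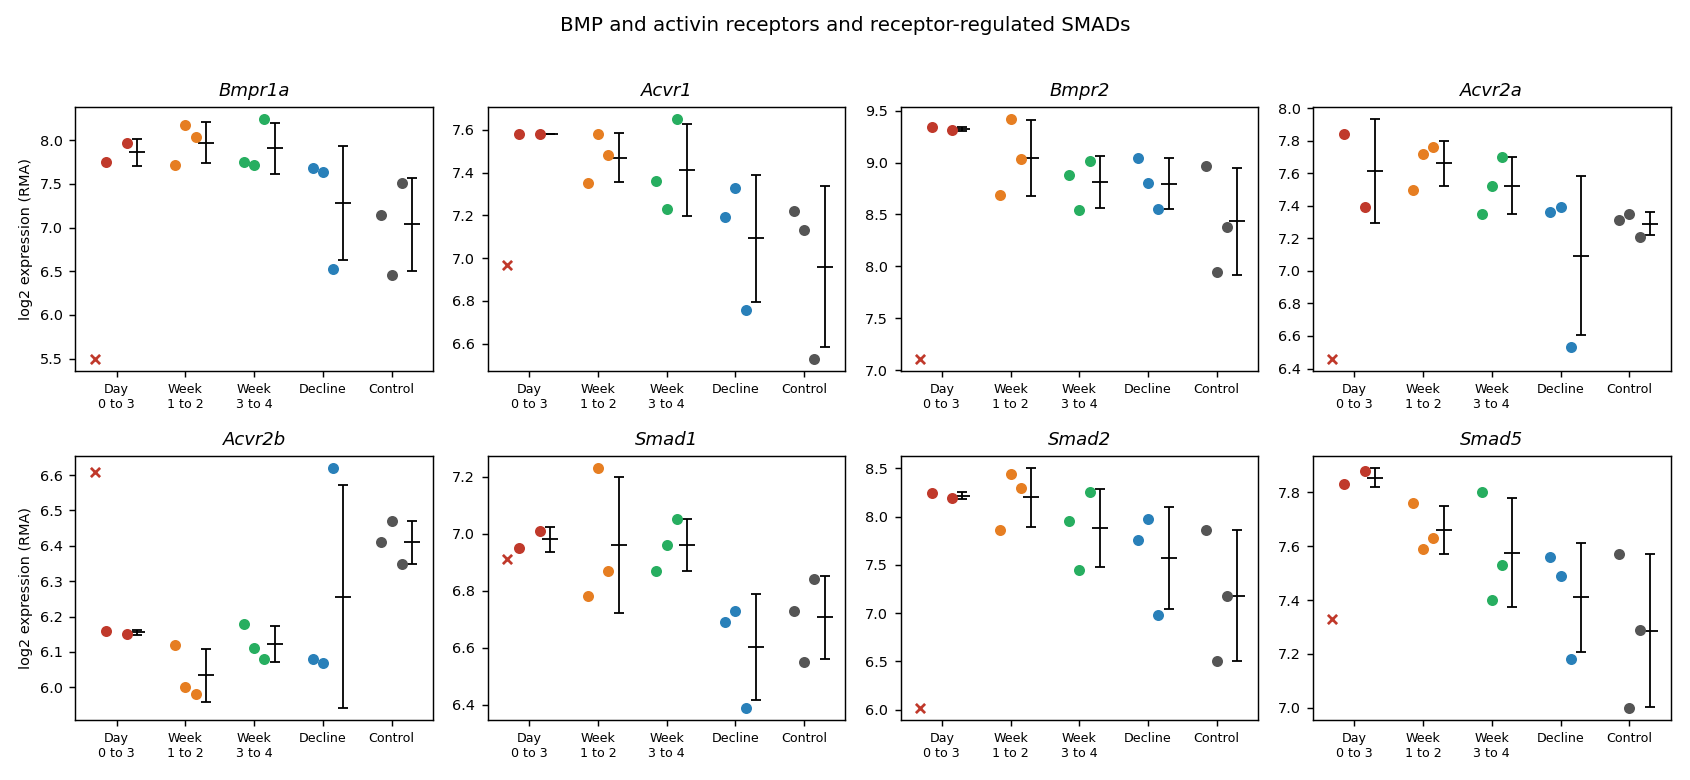
Log2 expression of 5 receptor genes and 3 receptor-regulated SMAD genes by phase and control, none of them called, with dots, bars and cross for single arrays, mean and SD, and animal 57, outside mean and test. Decline 10 lies above the other 2 declining joints for Acvr2b. It lies below them for Bmpr1a, Acvr1, Bmpr2, Acvr2a, Smad1, Smad2 and Smad5. Control 2 is the lowest control for Bmpr1a, Bmpr2, Smad1, Smad2 and Smad5.

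No receptor-regulated or common SMAD was called. Phase arrays lay above every control for 4 of the 6 on days 0–3, 2 in weeks 1–2 and 1 in weeks 3–4, where 18.4%, 13.6% and 10.5% of all genes did, and so few genes carry no result about the SMADs. Smad2, the effector of activin and TGF-beta, read 8.24 and 8.19 on days 0–3, 7.86, 8.44 and 8.30 in weeks 1–2, 7.95, 7.45 and 8.25 in weeks 3–4, 7.76, 7.98 and 6.98 in decline, and 7.86, 6.50 and 7.18 in controls. All arrays of the first 2 weeks lay level with or above the highest control, and the 3 controls spanned 6.50 to 7.86, more than the 5 early arrays. Its log2 change of 1.04 on days 0–3 (adjusted p = 0.0998) and 1.02 in weeks 1–2 (adjusted p = 0.065) amounts to 2.05-fold and 2.03-fold, and neither passed. Without control 1 the change on days 0–3 was 1.38 (adjusted p = 0.026), and without control 2 it was 0.70 (adjusted p = 0.274).

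On the BMP side, Smad5 read 7.83 and 7.88 on days 0–3, 7.76, 7.59 and 7.63 in weeks 1–2, 7.80, 7.40 and 7.53 in weeks 3–4, 7.56, 7.49 and 7.18 in decline, and 7.57, 7.0 and 7.29 in controls. The early arrays lay above every control, by 0.56 on average on days 0–3 (adjusted p = 0.0878, 0.0339 without control 1 and 0.225 without control 2) and by 0.37 in weeks 1–2 (adjusted p = 0.165). Smad1 read 6.95 and 7.01 on days 0–3, 6.78, 7.23 and 6.87 in weeks 1–2, 6.87, 6.96 and 7.05 in weeks 3–4, 6.69, 6.73 and 6.39 in decline, and 6.73, 6.55 and 6.84 in controls, with the highest array in weeks 1–2 and the lowest, decline 10, in decline, and its largest change was 0.28 (adjusted p = 0.331). Its arrays of days 0–3 and of weeks 3–4 lay above every control.

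Smad9, the last of the BMP-regulated SMADs, read 5.97 and 6.10 on days 0–3, 5.94, 6.01 and 6.23 in weeks 1–2, 6.10, 5.98 and 5.92 in weeks 3–4, 5.86, 5.99 and 6.34 in decline, and 6.42, 6.21 and 6.18 in controls, with changes between -0.27 and -0.21. Its arrays of days 0–3 and of weeks 3–4 lay below every control. Smad4, the common partner, read 8.50 and 8.48 on days 0–3, 8.41, 8.57 and 8.58 in weeks 1–2, 8.47, 8.31 and 8.44 in weeks 3–4, 8.41, 8.41 and 7.81 in decline, and 8.42, 7.83 and 8.32 in controls. Apart from decline 10 and control 2, its arrays lay between 8.31 and 8.58, and the change on days 0–3 was 0.30 (adjusted p = 0.382). Smad3 differed by -0.02, -0.04 and -0.12 in the first 3 phases and by -0.24 in decline (adjusted p = 0.527).

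Smad6, the inhibitory SMAD that acts mainly on BMP receptors and is itself switched on by BMP signals, fell in the first 2 phases. It read 6.74 and 6.40 on days 0–3, 6.81, 6.49 and 6.59 in weeks 1–2, 6.93, 6.71 and 6.95 in weeks 3–4, 6.86, 6.83 and 7.30 in decline, and 7.50, 7.30 and 7.18 in controls. All 8 arrays of the first 3 phases lay below every control, and in decline animal 10 lay among the controls while the other 2 arrays stayed below them. Smad6 was 1.70-fold lower on days 0–3 (log2 change -0.76, SE 0.19, adjusted p = 0.0299) and 1.63-fold lower in weeks 1–2 (-0.70, SE 0.17, adjusted p = 0.0242). The changes of weeks 3–4 and decline were -0.47 (adjusted p = 0.142) and -0.33 (adjusted p = 0.461). The call rests on a thin margin: without control 2 the adjusted p was 0.0566 on days 0–3 and 0.0522 in weeks 1–2, and without control 1 it was 0.0503 on days 0–3. Smad7, which blocks TGF-beta and BMP receptors alike, read 6.37 and 6.24 on days 0–3, 6.03, 6.30 and 6.31 in weeks 1–2, 6.25, 6.29 and 6.79 in weeks 3–4, 5.99, 5.97 and 6.44 in decline, and 6.04, 6.23 and 6.25 in controls, with every group overlapping control and changes between -0.04 and 0.27. Whether the change of Smad6 differs from that of Smad7 was not tested.

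Of the 7 antagonists and follistatin relatives, Fstl1 was called. It encodes a secreted glycoprotein of mesenchymal cells with a follistatin-like domain, and it read 11.11 and 11.15 on days 0–3, 11.01, 11.08 and 11.13 in weeks 1–2, 10.61, 10.37 and 11.09 in weeks 3–4, 10.47, 10.29 and 10.25 in decline, and 10.74, 8.99 and 9.89 in controls. The 5 arrays of the first 2 weeks lay between 11.01 and 11.15, above every control, while the controls ran from 8.99, in control 2, up to 10.74. The log2 change was 1.25 (SE 0.36, 2.38-fold, adjusted p = 0.0493) on days 0–3 and 1.20 (SE 0.32, 2.29-fold, adjusted p = 0.0342) in weeks 1–2. Its size depends on which controls are used: without control 2 the changes were 0.81 (adjusted p = 0.103) and 0.76 (adjusted p = 0.0914). Without control 1 they were 1.685 and 1.63, and both calls held. With 1 median and SD for every array the changes were 0.81 and 0.76, not called. The calls are marginal: that of days 0–3 held in 2 of 14 fits without 1 array and in 3 of 11 other alternatives, and was lost without control 3 (0.0925), without any 1 of animals 33, 43, 52, 54, 29, 60, 15 or 21 (0.0517 to 0.0703), with median centring, and with trend and robust moderation (0.0595). That of weeks 1–2 held in 7 of 14 and 5 of 11, and had an adjusted p of 0.0744 without control 3. The mean of the 8 fibroblast markers moved the same way, at 10.83 to 10.85 on days 0–3 and 10.85 to 10.99 in weeks 1–2, against 9.71 to 10.62 in controls, and its part in the Fstl1 values was not tested.

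None of the other antagonists was called. Grem1, gremlin, a BMP antagonist of synovium and cartilage, read 6.46 and 6.49 on days 0–3, 6.75, 6.65 and 6.85 in weeks 1–2, 6.63, 6.65 and 6.52 in weeks 3–4, 6.66, 6.36 and 6.75 in decline, and 6.88, 6.67 and 6.70 in controls, and Fstl3, which binds activin, read 7.43 and 7.16 on days 0–3, 7.39, 7.17 and 7.33 in weeks 1–2, 7.34, 7.34 and 7.22 in weeks 3–4, 7.04, 7.03 and 7.42 in decline, and 7.48, 7.90 and 7.27 in controls. Grem1 lay below every control on days 0–3 (-0.28, adjusted p = 0.275) and in weeks 3–4, and Fstl3 lay within the control range except in animals 18, 43, 60, 15 and 21, which lay below it. Noggin, chordin, chordin-like 1 and follistatin had no called change, the lowest being -0.31 for Nog and the highest 0.37 for Chrdl1, both in weeks 3–4.

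Ltbp2 rose on days 0–3. This matrix protein belongs by sequence to the latent TGF-beta binding proteins but is known to bind elastic fibrils rather than latent TGF-beta. Its arrays read 8.15 and 8.0 on days 0–3, 7.26, 7.33 and 7.27 in weeks 1–2, 7.43, 7.31 and 7.37 in weeks 3–4, 7.20, 7.11 and 7.49 in decline, and 7.47, 7.68 and 7.45 in controls. Both arrays of days 0–3 lay above every control, while all arrays of weeks 1–2 and of weeks 3–4 lay below every control. The change was 0.55 on days 0–3 (SE 0.16, adjusted p = 0.0479), -0.25 in weeks 1–2 (adjusted p = 0.248), -0.16 in weeks 3–4 (adjusted p = 0.459) and -0.27 in decline (adjusted p = 0.468). The call is marginal too: it held in 3 of 14 fits without 1 array and in 6 of 11 other alternatives. The adjusted p was 0.0675 without control 1, 0.104 without control 3, and 0.0566 to 0.0734 without any 1 of animals 33, 43, 52, 54, 29, 60 or 15. With 1 median and SD for every array the change was 0.41 (adjusted p = 0.191), and after a second quantile normalisation it was 0.30 (adjusted p = 0.453). Ltbp1, which does carry latent TGF-beta into the matrix, read 7.75 and 7.97 on days 0–3, 7.97, 8.25 and 8.15 in weeks 1–2, 8.15, 8.12 and 8.14 in weeks 3–4, 8.07, 7.99 and 7.80 in decline, and 8.08, 7.72 and 7.40 in controls. Its weeks 3–4 arrays lay above every control (0.41, adjusted p = 0.178), and Ltbp3 had changes between -0.11 and 0.04.

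The Id genes, direct targets of BMP-activated SMADs that hold back differentiation, were not called. Id2 read 8.0 and 7.63 on days 0–3, 7.60, 7.86 and 7.92 in weeks 1–2, 7.95, 7.53 and 7.91 in weeks 3–4, 7.99, 7.67 and 6.91 in decline, and 7.69, 5.93 and 6.65 in controls, and Id3 read 7.85 and 7.76 on days 0–3, 8.03, 8.09 and 8.0 in weeks 1–2, 8.36, 8.20 and 8.47 in weeks 3–4, 7.69, 8.12 and 7.59 in decline, and 7.44, 6.52 and 8.19 in controls. For Id2, controls 2 and 3, at 5.93 and 6.65, lay below every arthritic joint in the fit, while control 1, at 7.69, lay within their range. The changes of 1.06, 1.04 and 1.04 had adjusted p of 0.121, 0.0798 and 0.127. The first of these was 0.0136 without control 1 and 0.334 without control 2. Id3 was highest in weeks 3–4, where all 3 arrays exceeded the controls (0.96, adjusted p = 0.101), and this adjusted p was 0.0362 without control 3 and 0.282 without control 2. Id1 differed by 0.37 on days 0–3 (adjusted p = 0.316) and by 0.00 in weeks 3–4.

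Leaving out arrays bears on all calls together. Without animal 16 or animal 18, which leaves 1 array on days 0–3, no member was called there and 0.697% or 1.05% of all genes were. In weeks 1–2 none was called without animal 43 or without animal 52 (2.09% and 2.6% of all genes), 9 were without decline 10 (17% of all genes) and 11 without control 1 (16.3%). Animal 57, the days 0–3 array left out, read 6.90 for Inhba, 5.84 for Tgfbr1, 8.34 for Fstl1, 7.17 for Smad6, 7.41 for Bmp4 and 7.41 for Ltbp2. It lay closer to the controls than animals 16 and 18 for Inhba, Smad6, Bmp4 and Ltbp2. It was below every control for Tgfbr1, Fstl1 and Ltbp2 and, only just, for Smad6. For Ltbp2 that is the side opposite to the called rise. With it put back, no member was called in any comparison, and 0.818% of all genes were on days 0–3, 0.532% in weeks 1–2 and 0.597% in decline against the first 2 weeks. The changes on days 0–3 were then 1.55 for Inhba (adjusted p = 0.43), 0.31 for Tgfbr1 (0.941), 0.32 for Fstl1 (0.943), -0.56 for Smad6 (0.315), -0.50 for Bmp4 (0.286) and 0.32 for Ltbp2 (0.62).

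The phases were then set against each other, which uses no control array in the difference. Between weeks 1–2 and days 0–3 no member was called, and 1 of 19938 genes was (0.00502%). At an unadjusted p under 0.05 in limma, 1 member was lower (0.988% of all genes higher, 0.797% lower), Ltbp2, with a log2 change of -0.79 (95% interval -1.13 to -0.46, adjusted p = 0.329). Its 3 arrays of weeks 1–2 all lay below its 2 arrays of days 0–3. Inhba differed by -0.61 (95% interval -1.65 to 0.43, adjusted p = 1) and Tgfbr1 by -0.18 (-0.74 to 0.38), intervals that hold both no difference and sizeable ones. Arrays of the 2 phases did not overlap for 9 members higher in weeks 1–2 and 8 lower, 18% and 16%, where 9.12% and 11.2% of all genes did the same.

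In weeks 3–4 against the mean of the first 2 phases no member was called either, with 1 gene of all (0.00502%). Bmp4 was 0.58 higher (95% interval 0.27 to 0.89, adjusted p = 0.25) and Inhba differed by -1.11 (95% interval -1.94 to -0.27, adjusted p = 0.467), and in both the 3 arrays of weeks 3–4 lay outside the range of the 5 earlier ones. At an unadjusted p under 0.05, 2 members were higher and 2 lower by limma, where 4.68% and 2.59% of all genes were. By the 2-fold rule Inhba alone was lower, with 0.833% of all genes higher and 0.361% lower. No overlap between the arrays was seen for 3 members higher and 3 lower, where 6.2% and 2.94% of all genes showed it.

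Declining joints differed from the joints of the first 2 weeks in 2 members, Inhba and Tgfbr1, both lower. This is 4% of the members, where 4.75% of all genes were called (2.67% higher, 2.08% lower). Inhba averaged 7.51 ± 1.04 in declining joints (SD, n = 3), against 9.75 ± 0.08 on days 0–3 (SD, n = 2) and 9.14 ± 0.31 in weeks 1–2 (SD, n = 3). It fell 3.82-fold (log2 change -1.94, 95% interval -2.77 to -1.10, adjusted p = 0.0162), with all 3 declining joints below all 5 early joints. Decline 10, at 6.31, lay far below the other declining joints, and without it the change was -1.33 (adjusted p = 0.0377).

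Tgfbr1 averaged 7.57 ± 0.47 in declining joints (SD, n = 3), against 8.74 ± 0.11 on days 0–3 (SD, n = 2) and 8.56 ± 0.03 in weeks 1–2 (SD, n = 3). It fell 2.11-fold (log2 change -1.08, 95% interval -1.53 to -0.63, adjusted p = 0.0146), again with no overlap, and the call was lost without decline 10 (-0.90, adjusted p = 0.0514). Neither gene was called without animal 16 or without animal 18. All 3 declining joints carry the second of 2 letter codes in the array names and all 5 early joints the first. In weeks 3–4, animal 54 carries the first code and animals 29 and 60 the second. The comparison of weeks 3–4 with the first 2 weeks is therefore partly mixed with the code. The controls carry neither code. With the code as a term, which weeks 3–4 alone can inform, the changes were -1.33 for Inhba and -0.65 for Tgfbr1, both with an adjusted p of 0.974. No source used here gives the meaning of the codes, and code and phase cannot be told apart for these 8 joints.

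No other member was called between these groups. Bmp4 was 0.47 (adjusted p = 0.0795), Bmp7 0.45 (adjusted p = 0.102) and Smad6 0.40 (adjusted p = 0.165), each with 3 declining joints above all early ones. Below all early joints lay Fstl1 (-0.77, adjusted p = 0.155), Bmpr1a (-0.64), Acvr1 (-0.44), Smad1 (-0.37) and Smad5 (-0.35), none called. In all, 4 members were higher and 7 lower without overlap, 8% and 14%, where 9.07% and 7.34% of all genes were. At an unadjusted p under 0.05 in limma it was 3 and 9, where 10.2% and 9.6% of all genes were higher and lower. The median change of the members was -0.09, against 0.04 for all genes. The macrophage mean was 7.15 to 8.11 in declining joints, against 8.57 to 8.89 on days 0–3 and 8.09 to 8.57 in weeks 1–2, and its part in these differences was not tested.

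**Figure D4:**
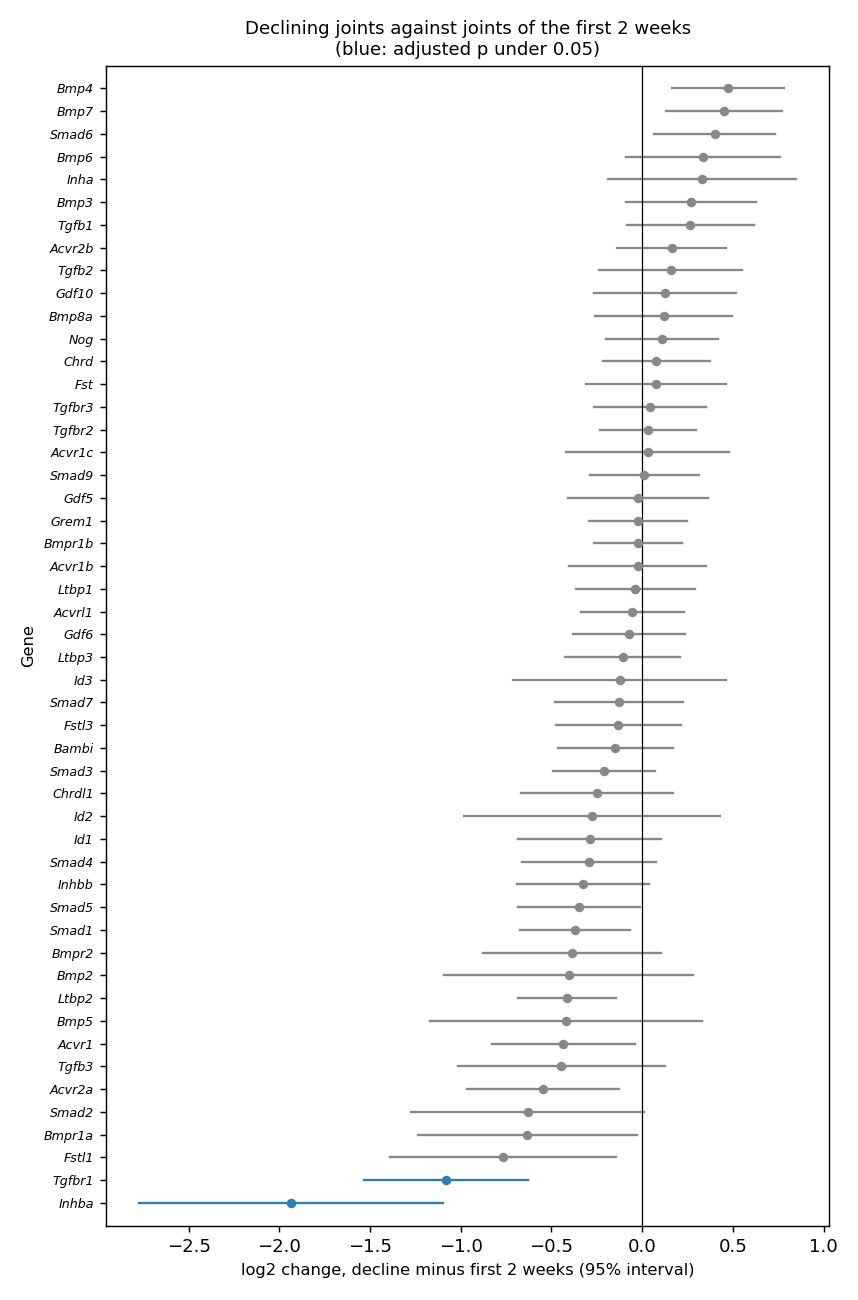
Log2 change of each of the 50 genes in declining joints relative to the mean of days 0–3 and weeks 1–2 (x axis), with its 95% interval, sorted by size. Inhba at -1.94 and Tgfbr1 at -1.08, in blue, have an adjusted p under 0.05, and most other intervals reach 0.

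Beyond the 50 members, 95 further genes of the pathway were measured of 103 listed by role, and the rest of that list was not analysed here. On days 0–3, 9 of the 95 rose and 4 fell, and in weeks 1–2 it was 11 and 2, or 13.7% in each phase, where 7.82% and 10.1% of all genes were called. In weeks 3–4, 3 rose (3.16%, background 1.55%), and in decline none was called against control. Among the 15 TGF-beta induced genes, 5 rose on days 0–3 (33.3%) and 6 in weeks 1–2 (40%), where 4.46% and 5.41% of all genes rose. None fell, and the list median was 0.80 and 0.65, against -0.12 and -0.13 for all genes. The list was drawn up with earlier results of these data known. It holds Timp1, Postn, Col1a1 and Col1a2, which the study reports as raised, so its counts and medians are no result about TGF-beta signalling. Of the 11 BMP induced genes, 1 fell on days 0–3 and 1 rose in weeks 1–2, 9.09% each, with list medians of -0.34 and -0.09. In weeks 3–4, 1 rose (9.09%, background 0.958% higher), with a list median of -0.001. Whether the 2 lists differ was not tested.

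Timp1, the tissue inhibitor of metalloproteinases that many inflammatory signals besides TGF-beta raise, read 11.79 and 11.63 on days 0–3, 10.09, 10.65 and 11.08 in weeks 1–2, 9.62, 9.23 and 10.88 in weeks 3–4, 9.68, 9.62 and 8.59 in decline, and 7.79, 7.76 and 7.23 in controls. All 11 arthritic joints in the fit lay above every control, while animal 57, left out, read 6.46, below every control. The log2 change was 4.11 on days 0–3 (adjusted p = 0.000579), 3.01 in weeks 1–2 (adjusted p = 0.0021) and 2.31 in weeks 3–4 (adjusted p = 0.0232). Postn, the matrix protein periostin, read 11.72 and 11.90 on days 0–3, 11.53, 11.84 and 11.74 in weeks 1–2, 10.43, 10.43 and 11.38 in weeks 3–4, 10.24, 10.09 and 9.18 in decline, and 10.42, 7.54 and 7.58 in controls. Control 1 reached the level of weeks 3–4 joints, yet the changes of 3.30 and 3.19 in the first 2 phases passed (adjusted p = 0.0109 and 0.00692).

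Pmepa1, a TGF-beta target that holds back SMAD2 and SMAD3, read 9.48 and 9.31 on days 0–3, 9.19, 9.04 and 9.04 in weeks 1–2, 9.28, 9.08 and 9.65 in weeks 3–4, 9.12, 9.04 and 8.50 in decline, and 8.24, 8.18 and 7.64 in controls. It was called in each of the first 3 phases, with changes of 1.38, 1.07 and 1.32 (adjusted p = 0.00487, 0.00965 and 0.0175), and its 11 arthritic joints in the fit lay above all controls. Tgfbi, a TGF-beta induced matrix protein, rose on days 0–3 (1.48, adjusted p = 0.0078). Type I collagen, the main protein of bone and tendon, rose in weeks 1–2 through Col1a1 (1.10, adjusted p = 0.0252) and Col1a2 (1.13, adjusted p = 0.0128). The transcription factor gene Hey1 rose in weeks 1–2 (0.85, adjusted p = 0.0463) and in weeks 3–4 (1.15, adjusted p = 0.0422). Bmp1, which despite its name is a protease that trims procollagen and chordin, read 8.40 and 8.28 on days 0–3, 8.10, 8.21 and 8.19 in weeks 1–2, 8.04, 7.80 and 8.30 in weeks 3–4, 7.73, 7.87 and 7.97 in decline, and 7.70, 7.82 and 7.18 in controls. Its change was 0.77 on days 0–3 (adjusted p = 0.034) and 0.60 in weeks 1–2 (adjusted p = 0.0504), called in the first alone.

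The 4 genes that fell on days 0–3 come from different arms of the pathway. Hjv, a BMP co-receptor of muscle and liver, read 8.06 and 7.16 on days 0–3, 8.71, 8.51 and 7.95 in weeks 1–2, 8.37, 8.75 and 7.43 in weeks 3–4, 9.06, 8.91 and 8.29 in decline, and 9.13, 9.27 and 9.97 in controls, with a change of -1.85 (adjusted p = 0.0164). Skeletal muscle markers lay at 8.96 to 9.14 on days 0–3 and 11.05 to 11.75 in controls, and their part in the Hjv values was not tested. Dlx5, a homeobox gene of osteoblasts that BMPs induce, changed by -0.98 (adjusted p = 0.00844), Sost, the osteocyte antagonist sclerostin, by -0.84 (adjusted p = 0.0307) and Amh by -0.76 (adjusted p = 0.036). In weeks 1–2, Amh (-0.80, adjusted p = 0.017) and Gdf3 (-0.48, adjusted p = 0.0434) fell. Amh read 5.07 and 5.08 on days 0–3, 5.31, 4.99 and 4.80 in weeks 1–2, and 5.50, 6.05 and 5.94 in controls. Gdf3 read 5.91, 5.88 and 6.03 in weeks 1–2 and 6.39, 6.49 and 6.36 in controls. The median of all probe sets was 6.14, 6.06 and 6.12 in weeks 1–2 and 6.16, 6.30 and 6.15 in controls. In both groups Amh lay below that median, and Gdf3 did so in weeks 1–2 only. Whether values this low reflect expression of these genes was not tested.

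In declining joints against those of the first 2 weeks, 6 of the 95 were called (6.32%, background 4.75%). Timp1 (-1.86, adjusted p = 0.0142), Itgav, an integrin chain that frees latent TGF-beta (-0.91, adjusted p = 0.0474), Tgfbi (-0.89, adjusted p = 0.0366) and Itgb8 (-0.77, adjusted p = 0.0497) fell. Dlx5 (0.87, adjusted p = 0.00973) and the BMP and WNT antagonist gene Sostdc1 (0.69, adjusted p = 0.0451) rose. These calls carry the same limit of the letter code as those of Inhba and Tgfbr1.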

How the data were processed

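Whole-joint RNA had been amplified and hybridised to 15 arrays, and the authors deposited log2 expression values from robust multi-array averaging (RMA in the affy package under R 2.15, per the labels; no source used here gives the affy version or says whether animal 57 was normalised with the rest). RMA subtracts background, forces all arrays to 1 distribution before probes are summarised and so removes part of any real shift common to many genes; the deposited values still differed in spread between arrays. Values ran from 1.56 to 14.26. Arrays have no read depth, so their number limits the precision.

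Of 35556 probe sets, 21789 named 1 gene in the platform annotation, 1621 several and 12146 none listed, and 21698 matched a RefSeq gene identifier. Where several probe sets named a gene (999 genes), the brightest on average over the 14 arrays stood for it, which gave 19938 genes. Groups came from the sample labels, and replicate numbers are animal numbers that pair no arrays between groups. limma 3.58.1 in R 4.3.3 fitted 5 group means to 14 arrays, with 7 contrasts, empirical Bayes moderation and Benjamini-Hochberg adjustment over all genes. The first 2 weeks stand for the equal-weight mean of the days 0–3 and weeks 1–2 group means. The script was tested on simulated data. Tables and plots used Python 3.11.15, pandas 2.3.3 and matplotlib 3.10.9.

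The members, the gene lists and the tests were chosen with earlier results of these data known. Values of every array are given for members called in any comparison, members the study names, the 2 largest changes in each role, and members whose controls all lay above or below every array of 2 or more phases. Of the other pathway genes, up to 4 called in each direction and comparison are named by size of change, and Bmp1. The alternatives were array 57 put back, each array left out, other normalisations, other moderation, array weights, plain analysis of variance, only the groups compared, a group mean of at least 6, the mean of probe sets, a 2-fold threshold with an unadjusted p under 0.05, and a term for the letter code in array names. Scaling all arrays to a common median and SD, and a fit without decline 10 and control 2, were added after seeing the data.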

Additional observations from a re-analysis of the deposited data

Results flagged for a closer look

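The difference between declining joints and the joints of the first 2 weeks passed the test for Inhba, at -1.94 on the log2 scale, and for Tgfbr1, at -1.08. Ltbp2 lay above every control on the days 0–3 arrays (0.55) and below every control in weeks 1–2 (-0.25) and weeks 3–4 (-0.16). The difference of weeks 1–2 from days 0–3, at -0.79, had an adjusted p of 0.329 in limma.

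Animal 57, the days 0–3 array left out for quality, lay above every control for 10 members, below every control for 19 and within the controls for 21. Of all genes, 36.3% lay above and 27.4% below every control on that array. The 10 members above the controls were Gdf5 at 6.44, Inha at 6.70, Bmpr1b at 5.77, Acvr2b at 6.61, Bambi at 7.42, Smad1 at 6.91, Smad9 at 6.65, Grem1 at 7.15, Chrd at 6.44 and Fstl3 at 8.10 log2. That array had the narrowest spread over genes, with an SD of 1.08.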

How the results depend on the processing

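On days 0–3, 6 were called, against 0 with all 15 arrays, 3 with trend and robust moderation and 2 with only the groups of the comparison. In weeks 1–2, 4 were called, against 0 with all 15 arrays, 9 with array weights and 2 in an analysis of variance without moderation. In weeks 3–4, 0 were called, against 2 by a 2-fold change and an unadjusted p under 0.05 (Inhba and Id2) and 1 without decline 10 and control 2 (Inhba). Between weeks 1–2 and days 0–3, array weights gave 1 (Ltbp2). Between weeks 3–4 and the first 2 weeks, array weights gave 2 (Bmp4 and Inhba) and the 2-fold rule 1 (Inhba). In decline against the first 2 weeks, 2 were called, against 0 with all 15 arrays, 0 in the analysis of variance, 0 with the letter code as a term, 4 after a second quantile normalisation, 8 with array weights and 4 without decline 10 and control 2. Leaving out single arrays gave 0 to 8 on days 0–3, 0 to 11 in weeks 1–2, 0 to 4 in weeks 3–4, 0 to 4 in decline against the first 2 weeks, and 0 in the other 3 comparisons. The cause was not tested. Tgfb3 in decline against control (-0.42) turned to 0.020 without decline 10, 0.012 with array weights and 0.081 without decline 10 and control 2, and leaving out single arrays gave -0.674 to 0.020. Of the other values of single named members under the alternatives, 837 kept direction and side of the threshold, 99 lost the call and 13 gained one. The 837 include members in comparisons where they were not called at the outset, so they do not measure how stable the calls were. Of the called changes, none held in more than 12 of 14 fits without 1 array. That of Fstl1 on days 0–3 held in 2 of 14. No paired analysis was possible because the groups share no replicate number.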
